A study of Mus musculus with 2 samples.

Results

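Non-canonical Wnt signaling and planar cell polarity were examined through 10 genes, Wnt5a, Wnt11, Fzd2, Ror1, Ror2, Ptk7, Vangl1, Vangl2, Prickle1 and Daam1, in the sorted Mesp1Cre lineage of mouse embryos at E9.5. The genes were chosen by symbol among the 27998 genes of the count matrices, and each symbol occurred once. The values are counts of unique molecular identifiers (UMIs), each of which tags 1 captured transcript at its 3′ end, from 1 library for each of 2 genotypes. Both genotypes were Swiss Webster embryos that carried Mesp1Cre, a driver active in early mesoderm, and Rosa26-GFPflox/+, a reporter that turns green once Cre has acted. The cKO embryos also carried Tbx1flox/flox, so that Cre can delete part of Tbx1, a T-box transcription factor gene, whereas the Ctrl embryos carried no floxed Tbx1. The pharyngeal apparatus and heart were dissected, a pair of embryos was pooled per library, and GFP-positive, DAPI-negative cells were sorted. By the study's methods the cKO embryos had more somites than the Ctrl embryos, so that stage and genotype cannot be told apart in these libraries. Each genotype is 1 library, further libraries of the study are not analysed here, and so the differences below are between these libraries and carry no test. Intervals are 95% intervals for counting error only.

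In the non-canonical branch, Wnt5a and Wnt11 are secreted ligands that act through Frizzled receptors together with the receptor tyrosine kinase-like proteins Ror1, Ror2 and Ptk7, without stabilizing beta-catenin. Vangl1, Vangl2 and Prickle1 are core planar polarity proteins, which gather on the same side of a cell, and Daam1 is a formin that binds Dishevelled and acts on actin. In the second heart field, Wnt5a, Wnt11 and Vangl2 are known for their part in the deployment of progenitors to the outflow tract and in its shape.

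The libraries labelled Ctrl and cKO kept 6591 and 8969 cells, with medians of 16854 and 14189 UMIs per cell, and 11 of the kept barcodes occurred in both. Clusters were named from markers of the study's populations, giving MLP-like cells (multilineage primed progenitors; 692 and 1295 cells), BrM-like cells (branchiomeric muscle progenitors; 685 and 787), SoM/aSHF-like cells (somatic mesoderm and anterior second heart field; 685 and 802), pSHF-like cells (posterior second heart field; 1159 and 1174), CM-like cells (cardiomyocytes; 273 and 466), paraxial mesoderm-like cells (415 and 308) and endothelium-like cells (367 and 381), which were compared. Epicardium-like cells (66 and 98) were few, and erythroid-like cells (0 and 151) occurred in the library labelled cKO alone. A further 34.1% and 39.1% of cells stayed in unnamed clusters, called here by number and leading genes. The 10 genes did not enter the clustering. In the genome annotation (GRCm38) they are protein-coding genes: Wnt5a at chr14:28504543-28527448, Wnt11 at chr7:98835084-98854747, Fzd2 at chr11:102604431-102608058, Ror1 at chr4:100095791-100444806, Ror2 at chr13:53109317-53286124, Ptk7 at chr17:46564451-46630049, Vangl1 at chr3:102153583-102204744, Vangl2 at chr1:172000960-172027318, Prickle1 at chr15:93499111-93596266 and Daam1 at chr12:71830950-71992376. The values per gene count UMIs over its whole transcript model, which the 3′ chemistry places mostly near the end. Tbx1 itself was not lower in MLP-like cells, at 57.8 CPM in the library labelled Ctrl and 115 in that labelled cKO, and in BrM-like cells it was at 112 and 99.2 CPM, a unit in which the UMIs of a gene are scaled to the same fixed total in every population and library. The position of the deleted part relative to the counted 3′ end is not given in the sources used here, so these counts do not check the labels. Over all genes with at least 100 UMIs, the median log2 ratio of cKO over Ctrl lay between −0.14 and −0.07 in the 7 populations. Under trimmed mean of M values (TMM) scaling the log2 factor of cKO over Ctrl lay between −0.185 and −0.0896, which raises each ratio by as much. This turned the sign of 6 small ratios, Ptk7 in BrM-like and CM-like cells, Prickle1 in BrM-like and SoM/aSHF-like cells, Fzd2 in SoM/aSHF-like and Daam1 in endothelium-like cells.

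Wnt5a stood out among the ligands. In MLP-like cells it was at 169.6 CPM in the library labelled Ctrl and 30.2 CPM in that labelled cKO, a level 5.62-fold lower, with a log2 ratio of −2.49, interval −2.62 to −2.36. In BrM-like cells the levels were 85.9 and 13.7 CPM, 6.26-fold lower and a log2 ratio of −2.65, interval −2.90 to −2.40. Thus MLP-like and BrM-like cells had the highest levels in the library labelled Ctrl but not in the other, and among the 7 populations of the library labelled cKO the BrM-like level was above that of endothelium-like cells alone. The difference was smaller in the other populations. Wnt5a was at 69.7 and 31.2 CPM in pSHF-like cells (log2 ratio −1.16), at 36.6 and 18.5 CPM in SoM/aSHF-like cells (−0.98) and at 41.8 and 21.2 CPM in CM-like cells (−0.98). Endothelium-like cells had 8.98 and 3.86 CPM (−1.22, interval −2.01 to −0.48), from only 58 and 21 UMIs. In pSHF-like cells the summed level of the 10 CM markers was also higher in the library labelled cKO (219 against 507 CPM, 10 of 10 markers higher), and its part in the result was not tested. Paraxial mesoderm-like cells differed least, 65.4 and 53.1 CPM, a log2 ratio of −0.30, interval −0.52 to −0.09, which became −0.99 at resolution 0.6. There too the CM markers summed higher in the library labelled cKO (25.4 against 66.7 CPM, 9 of 10 markers higher), as did the endothelial markers (46.4 against 68.5 CPM), and their part in the result was not tested. The log2 ratio in MLP-like cells minus that in paraxial mesoderm-like cells was −2.19 (interval of the difference −2.44 to −1.94), and minus that in pSHF-like cells −1.33 (−1.52 to −1.14), whereas MLP-like minus BrM-like was 0.16 (−0.12 to 0.43). Wnt5a and Daam1 are also among the genes that the study singled out from its own data, so their direction here is not independent evidence.

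The order of the levels changed with it. In the library labelled Ctrl, MLP-like and BrM-like cells stood first and apart from the rest, pSHF-like and paraxial mesoderm-like cells did not differ beyond their intervals, nor did CM-like and SoM/aSHF-like cells, and endothelium-like cells were lowest. In that labelled cKO, paraxial mesoderm-like cells stood first and apart, pSHF-like and MLP-like cells overlapped, CM-like and SoM/aSHF-like cells overlapped, and BrM-like cells came next.

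**Figure D1:**
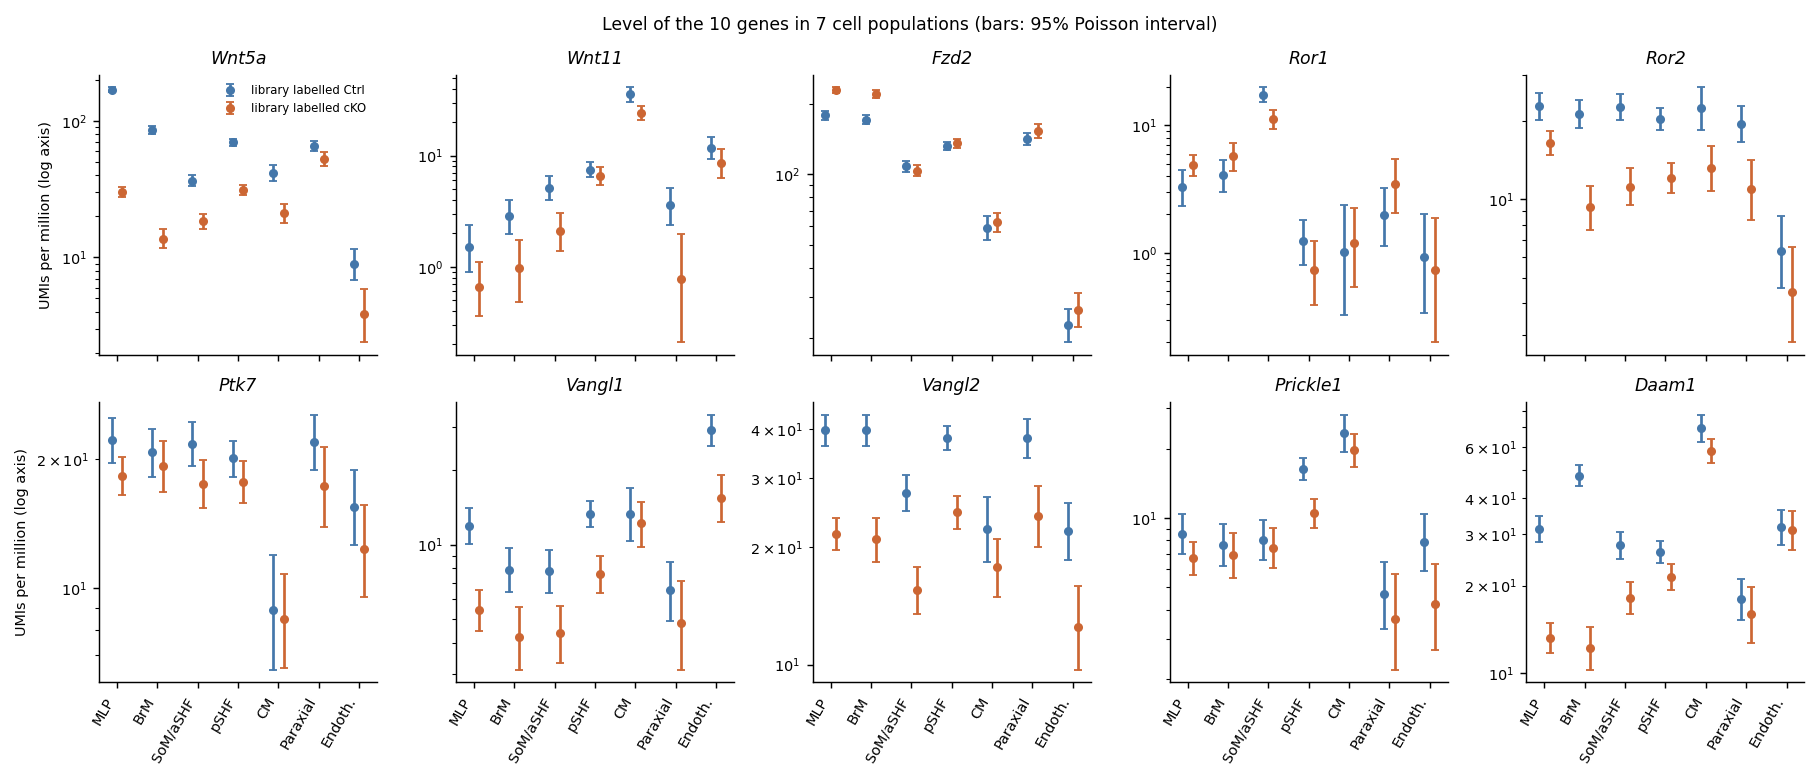
Level in CPM (log axis) of each of the 10 genes in 7 cell populations, with a point for the library labelled Ctrl (blue) and for that labelled cKO (orange) and bars for the 95% Poisson interval. Wnt5a in MLP-like cells lies at 169.6 and 30.2 CPM, while Fzd2 there lies higher in the library labelled cKO, at 228 against 178 CPM.

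The lower Wnt5a count in MLP-like and BrM-like cells was seen in their separate clusters too. Clusters 1 and 5, which make up the MLP-like cells, had 161 and 177 CPM in the library labelled Ctrl and 28.2 and 32.1 CPM in the other. Of the BrM-like clusters, cluster 7 (led by Nkx2-3 and Tlx1) went from 109.9 to 12.4 CPM, and cluster 10 (led by Col25a1 and Lhx2) from 67.4 to 14.8 CPM. Over the 24 clusters with at least 50 cells in each library, Wnt5a was lower in 23, in 19 of them beyond counting error. The exception was cluster 20 (led by Pax3 and Tcf15), at 71.1 and 71.2 CPM. Among unnamed clusters the lowest ratios were in cluster 3 (led by Postn and Alcam), at 30.6 and 6.59 CPM, and cluster 14 (led by Cbr3 and Lum), at 74.8 and 17.6 CPM.

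Fewer cells had a Wnt5a UMI. With each cell thinned to 5000 UMIs, 52.2% (48.4 to 56.0) of MLP-like cells had a Wnt5a UMI in the library labelled Ctrl and 12.0% (10.3 to 13.9) in that labelled cKO. In BrM-like cells the shares were 31.8% (28.3 to 35.4) and 6.15% (4.57 to 8.08). Endothelium-like cells, in which Wnt5a was lowest of the 7 populations, gave 3.31% (1.72 to 5.72) and 2.17% (0.941 to 4.23). Both the MLP-like and the BrM-like share in the library labelled cKO lay above these values. The BrM-like interval, however, overlapped that of endothelium-like cells in the library labelled Ctrl. Erythroid-like cells of the library labelled cKO had 1 of 151 cells with a Wnt5a UMI. Without thinning, the MLP-like shares were 82.1% and 34.3% and the BrM-like shares 68.3% and 16.1%, at median depths of 15976.5 and 15263 UMIs per MLP-like cell and 16276 and 13642 UMIs per BrM-like cell. The endothelium-like cells had medians of 16495 and 13881 UMIs.

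**Figure D2:**
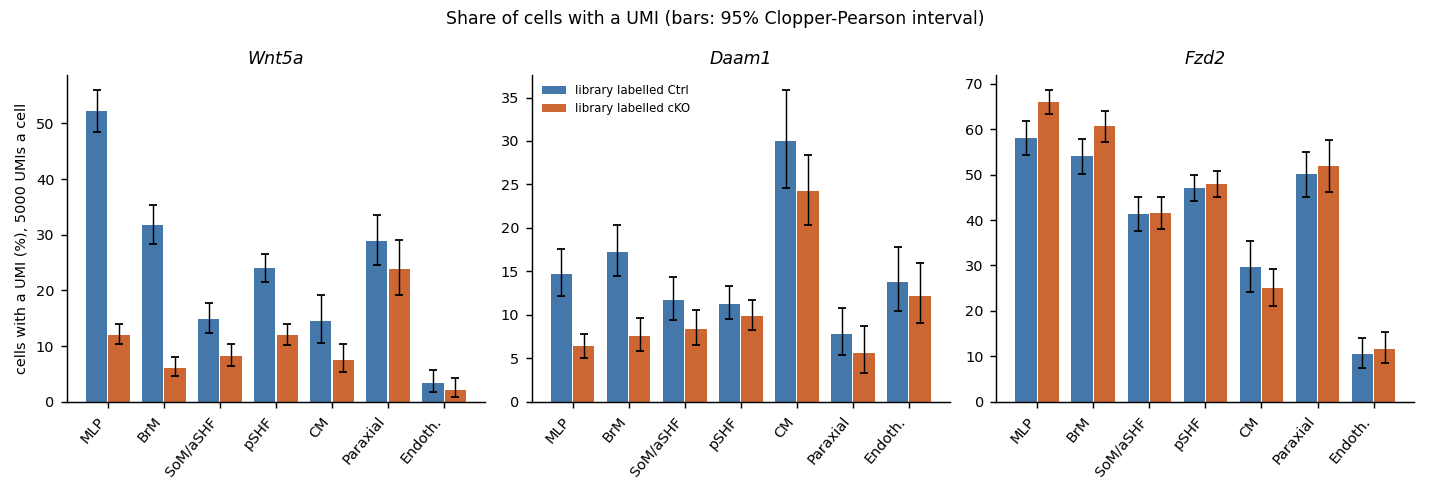
Percentage of cells with at least 1 UMI of Wnt5a, Daam1 and Fzd2 after each cell was thinned to 5000 UMIs, by population, with bars from 0 and 95% Clopper-Pearson intervals. The Wnt5a share in MLP-like cells is 52.2% in the library labelled Ctrl (blue) and 12.0% in that labelled cKO (orange), while the Fzd2 share there is 58.0% and 66.0%.

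Each library held cells with Xist and no Y-linked UMI and cells with Y-linked UMIs and no Xist, so that both pools held a female and a male embryo and the ratio could be read within each sex. In MLP-like cells Wnt5a was at 170.4 and 28.1 CPM in female cells and at 176 and 33.2 CPM in male cells, and the log2 ratios were −2.60 and −2.41. In BrM-like cells the ratios were −2.51 and −2.92. In both populations the level was thus lower in each sex. In CM-like cells the sexes lay apart, with −0.22 (interval −0.68 to 0.24) in female cells and −1.62 (−2.22 to −1.05) in male cells. Paraxial mesoderm-like cells were unevenly spread over the embryos, with 318 female and 74 male cells in the library labelled Ctrl against 28 and 223 in the other. Within the sexes their Wnt5a ratio was −0.60 (interval −1.42 to 0.12) and −0.80 (−1.12 to −0.48), both lower than the pooled −0.30. The part of the embryos' shares in the pooled value was not tested.

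**Figure D3:**
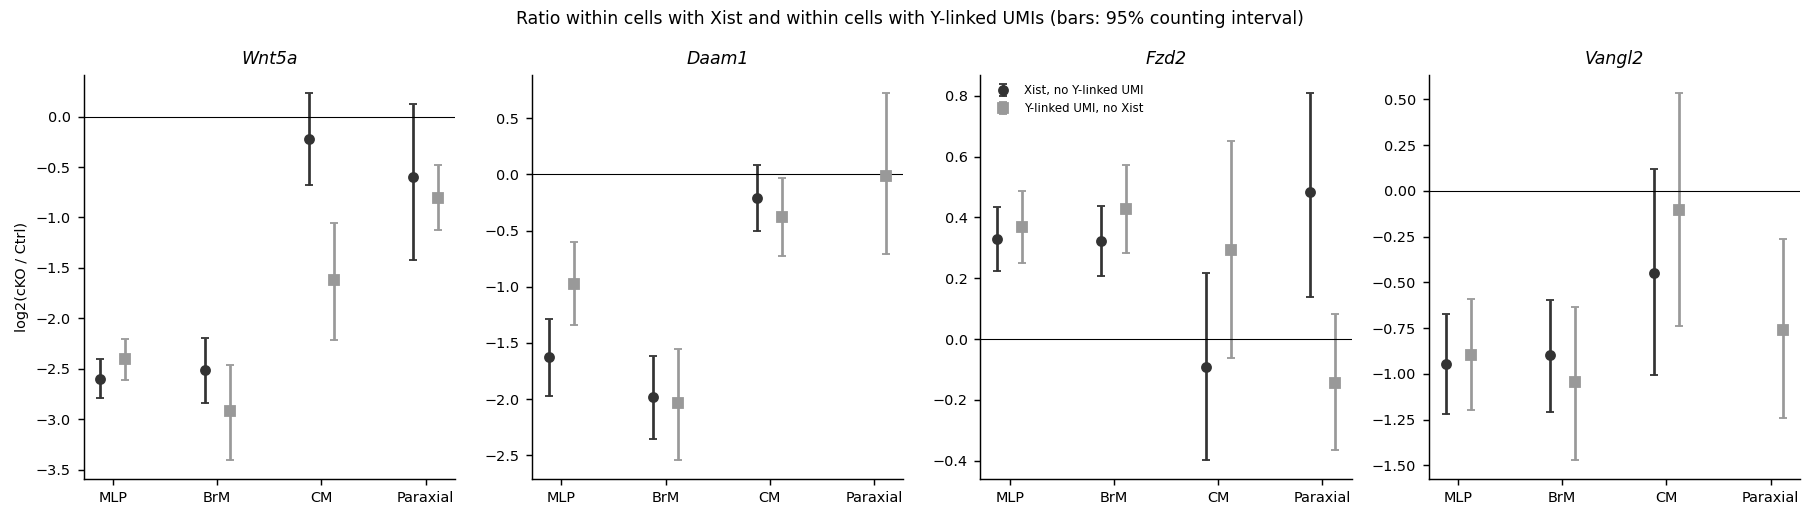
log2 ratio of cKO over Ctrl for Wnt5a, Daam1, Fzd2 and Vangl2 in 4 populations, each gene on its own axis, computed in cells with Xist and no Y-linked UMI (dark circles) and in cells with Y-linked UMIs and no Xist (grey squares), with 95% counting intervals and no point where a library had fewer than 10 UMIs. Wnt5a in MLP-like cells gives −2.60 and −2.41, whereas in CM-like cells the sexes lie apart at −0.22 and −1.62.

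Across the 24 clusters of the library labelled Ctrl, the genes with the level pattern most like that of Wnt5a were Rdh10 (Pearson r = 0.785 on log2(CPM + 1)), Eya1 (0.743), Ndnf (0.739), Prrx1 (0.730) and Irx1 (0.700), among 4751 genes that reached 50 CPM in a cluster. Clusters share a library, so these values are a description.

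Wnt11, the other ligand, was low in most populations. It was highest in CM-like cells, at 35.5 CPM in the library labelled Ctrl and 24.2 CPM in that labelled cKO, a log2 ratio of −0.55, interval −0.86 to −0.25. Within the CM-like cells its level was highest in cluster 22 (led by Myh7 and Tdgf1), at 80.3 and 46.9 CPM, whereas cluster 17 (led by Myh6 and Actc1) had 19.7 and 16.9 CPM and cluster 23 (led by Myl2 and Myh7) 22.2 and 23.1 CPM. Among the named populations epicardium-like cells followed, at 14.4 and 14.6 CPM, but from only 20 and 23 UMIs. The unnamed cluster 3 (led by Postn and Alcam) had 14.6 and 7.81 CPM (−0.90). Endothelium-like cells had 11.8 and 8.64 CPM, with intervals that overlapped those of epicardium-like cells. Most of the endothelium-like UMIs came from cluster 19 (led by Klf2 and Gngt2), at 29.0 and 24.6 CPM. Cluster 15 (led by Cldn5 and Emcn) had 4 UMIs and 0 UMIs, the latter allowing up to 0.849 CPM. MLP-like and BrM-like cells held 1.51 and 2.86 CPM in the library labelled Ctrl and 14 and 11 UMIs in all in the other, under the 100 UMIs needed for a comparison. Nearest to Wnt11 in pattern were Strn3 (r = 0.858), Smim14 (0.850), Tbx20 (0.844), Airn (0.837) and Dctn3 (0.834). Thus in the library labelled Ctrl the ligands were highest in different populations, Wnt5a in MLP-like and Wnt11 in CM-like cells, and in that labelled cKO Wnt5a was highest in paraxial mesoderm-like and Wnt11 in CM-like cells.

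Fzd2, a Frizzled receptor, was the member most often higher in the library labelled cKO, in 15 of 24 clusters and in 7 of them beyond counting error. In MLP-like cells it was at 178 and 228 CPM, a log2 ratio of 0.36, interval 0.28 to 0.43, and in BrM-like cells at 171 and 219.7 CPM, 0.36, interval 0.28 to 0.45. Neither reached 1.5-fold. In the other named populations the interval of the ratio included 0, from −0.06 in SoM/aSHF-like to 0.22 in endothelium-like cells. The MLP-like ratio was above the pSHF-like one by 0.32 (0.22 to 0.43) and above the SoM/aSHF-like one by 0.42 (0.29 to 0.55). Female and male cells gave 0.33 and 0.37 in MLP-like cells and 0.32 and 0.43 in BrM-like cells. Fzd2 was lower in cluster 14, at 206 and 163 CPM, and in cluster 3, at 119.7 and 101 CPM. Thus Wnt5a was lower and this receptor higher in MLP-like and BrM-like cells, whereas both were lower in clusters 3 and 14.

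Ror2, a receptor of Wnt5a, was lower in every cluster compared. It was at 21.4 and 9.32 CPM in BrM-like cells (log2 ratio −1.20, interval −1.54 to −0.87), 22.7 and 11.2 CPM in SoM/aSHF-like cells (−1.02) and 20.4 and 12.1 CPM in pSHF-like cells (−0.75). In MLP-like cells the difference was smaller, 22.8 and 16.5 CPM (−0.47, interval −0.70 to −0.24), and the MLP-like ratio minus the BrM-like one was 0.73 (0.33 to 1.13). In the library labelled Ctrl its level ran from 19.6 to 22.8 CPM in 6 of the 7 populations, with overlapping intervals between neighbours, and was 6.35 CPM in endothelium-like cells. By cluster it was lower in 24 of 24, in 17 beyond counting error, and least so in cluster 14, at 14.7 and 14.5 CPM.

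Ror1 was instead a gene of particular clusters. Its level was 17.4 and 11.1 CPM in SoM/aSHF-like cells (log2 ratio −0.64, interval −0.95 to −0.33) and 35.5 and 15.7 CPM in cluster 4, led by Crym and Fst (−1.17, interval −1.52 to −0.83). MLP-like cells held 3.27 and 4.86 CPM, from 39 and 103 UMIs, with a ratio in the other direction (0.57, interval 0.03 to 1.14) that turned without integration of the libraries (−0.58), at resolution 0.6 (−0.74) and in male cells (−0.17). Ptk7, a co-receptor, kept a similar level in most populations, 20.1 to 22.1 CPM in 5 of the 7 in the library labelled Ctrl, and its log2 ratio lay between −0.34 and −0.07 in the 7, so that none reached 1.5-fold.

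**Figure D4:**
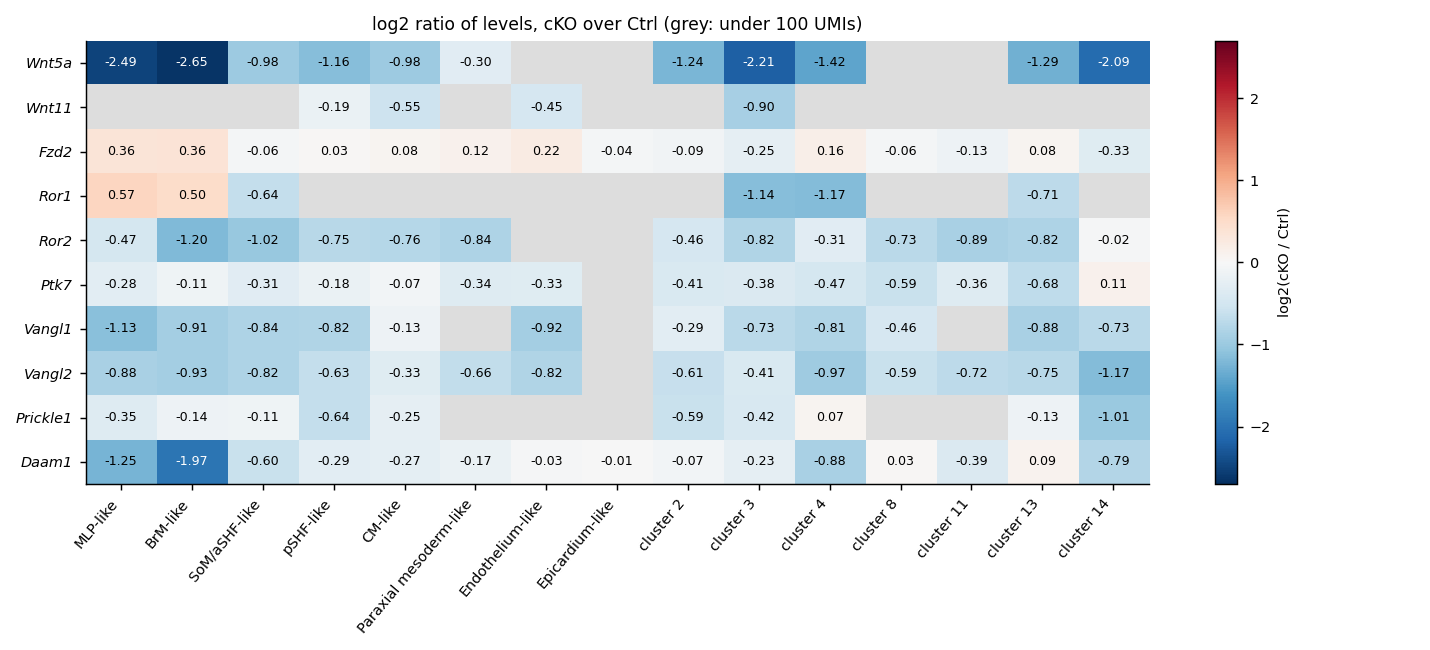
log2 ratio of cKO over Ctrl for each gene (rows) in each named population and unnamed cluster (columns), with blue for lower and red for higher in the library labelled cKO and grey where both libraries together had under 100 UMIs. The Wnt5a and Daam1 rows change most from column to column (−1.97 in BrM-like against −0.03 in endothelium-like cells for Daam1), whereas the Vangl2 row is blue wherever it is coloured, from −1.17 to −0.33.

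The core polarity genes Vangl2 and Vangl1 were lower across lineages. Vangl2 was at 39.8 and 21.6 CPM in MLP-like cells (log2 ratio −0.88, interval −1.07 to −0.69), 39.7 and 20.9 CPM in BrM-like cells (−0.93) and 22.0 and 12.5 CPM in endothelium-like cells (−0.82). The MLP-like and endothelium-like ratios differed by −0.07 (−0.52 to 0.39). Vangl2 was lower in 22 of the 24 clusters, in 19 beyond counting error, and among the 7 populations least so in CM-like cells (−0.33). The exceptions were clusters 21 (epicardium-like) and 23 (CM-like), each with fewer than 100 UMIs over both libraries. Female and male MLP-like cells gave −0.94 and −0.90, whereas endothelium-like cells gave −1.33 (−2.06 to −0.64) and −0.38 (−1.02 to 0.25), the male value being within 1.5-fold.

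Vangl1 had its highest Ctrl level among the 7 populations in endothelium-like cells, 29.1 against 15.4 CPM (−0.92, interval −1.30 to −0.54), and was at 11.9 and 5.42 CPM in MLP-like cells (−1.13, interval −1.50 to −0.77). It was detected most often in the erythroid-like cells of the library labelled cKO, 31.8% (24.5 to 39.9) of 151 cells at 5000 UMIs a cell, against 4.88% (2.92 to 7.60) of endothelium-like cells of that library. In CM-like cells the levels were 13.3 and 12.2 CPM (−0.13, interval −0.60 to 0.35). Prickle1 was highest among the 7 populations in CM-like cells, at 23.4 and 19.7 CPM. Of the 5 with at least 100 UMIs it reached 1.5-fold in pSHF-like cells, at 16.4 and 10.5 CPM (−0.64, interval −0.90 to −0.38). Endothelium-like cells, with 51 and 23 UMIs, had 7.90 and 4.23 CPM (−0.90, interval −1.68 to −0.17). Prickle1 was also lower in cluster 14, at 26.8 and 13.3 CPM (−1.01). Of the named populations with enough UMIs, Vangl2 was thus lower by at least 1.5-fold in 6 of 7, Vangl1 in 5 of 6 and Prickle1 in 1 of 5. Under TMM scaling Vangl2 no longer reached it in pSHF-like (−0.52) and paraxial mesoderm-like cells (−0.57), nor Prickle1 in pSHF-like cells (−0.53).

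Daam1, the formin effector, like Wnt5a had its lowest ratios among the named populations in BrM-like and MLP-like cells. It was at 47.8 and 12.2 CPM in BrM-like cells, 3.91-fold lower with a log2 ratio of −1.97, interval −2.25 to −1.70, and at 31.4 and 13.2 CPM in MLP-like cells, −1.25, interval −1.48 to −1.02. In SoM/aSHF-like cells it was at 27.5 and 18.1 CPM (−0.60), in cluster 4 at 16.0 and 8.69 CPM (−0.88) and in cluster 14 at 29.7 and 17.1 CPM (−0.79). Other named populations differed less. Endothelium-like cells had 31.8 and 31.1 CPM (−0.03, interval −0.33 to 0.27), and CM-like cells, with the highest level, 69.7 and 58.0 CPM (−0.27). The BrM-like ratio minus the endothelium-like one was −1.94 (−2.33 to −1.54), the BrM-like minus the CM-like −1.70 (−2.04 to −1.37) and the MLP-like minus the BrM-like 0.72 (0.37 to 1.07). Both BrM-like clusters shared the difference, with 43.9 and 11.6 CPM in cluster 7 and 50.8 and 12.7 CPM in cluster 10. SoM/aSHF-like cells split, since cluster 6 (led by Dkk1) had 45.1 and 29.0 CPM and cluster 12 (led by Gal) 9.38 and 9.57 CPM. Female and male cells gave −1.98 and −2.03 in BrM-like cells and −1.62 and −0.97 in MLP-like cells. With 5000 UMIs a cell, 17.3% (14.5 to 20.3) and 7.56% (5.81 to 9.65) of BrM-like cells had a Daam1 UMI.

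The sequence before the start is shown for Daam1, lower mainly in particular populations, and for Vangl2 and Ror2, lower in nearly all, since all 3 were lower in BrM-like cells. The promoter table used here, from RefSeq (GRCm38.p6), matched 7 of the 10 genes, all but Wnt5a, Vangl1 and Fzd2. Each line holds the 250 bases before the start annotated in RefSeq, 5′ to 3′ on the gene's strand. Capitals mark GGTGTG, the core of the site that T-box factors bind, on either strand. For Daam1 and Vangl2 that start lies inside the gene bounds given above, so these windows reach into those bounds. The windows are chr12:71830818-71831067 (plus strand) before the first of 2 annotated starts of Daam1, chr1:172027296-172027545 (minus) for Vangl2 and chr13:53286125-53286374 (minus) for Ror2.
Daam1: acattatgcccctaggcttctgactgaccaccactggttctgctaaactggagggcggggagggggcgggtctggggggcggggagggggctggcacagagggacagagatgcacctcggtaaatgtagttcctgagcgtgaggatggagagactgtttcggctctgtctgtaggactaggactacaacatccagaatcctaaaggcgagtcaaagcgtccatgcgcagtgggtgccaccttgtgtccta
Vangl2: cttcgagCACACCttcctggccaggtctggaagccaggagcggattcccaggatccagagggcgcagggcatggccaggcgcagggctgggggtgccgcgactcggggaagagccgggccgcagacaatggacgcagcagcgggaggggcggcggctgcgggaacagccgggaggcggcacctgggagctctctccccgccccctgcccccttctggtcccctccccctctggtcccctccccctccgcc
Ror2: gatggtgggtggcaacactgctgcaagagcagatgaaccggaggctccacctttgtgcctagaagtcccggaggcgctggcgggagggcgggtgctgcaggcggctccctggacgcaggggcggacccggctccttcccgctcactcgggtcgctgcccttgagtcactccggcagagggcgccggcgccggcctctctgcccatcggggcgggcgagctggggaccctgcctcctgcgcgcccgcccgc
The 6 letters occurred in the windows of 2 of the 7 genes, Vangl2 and Ror1, and in 16.2% of the windows of 27025 genes. The longer GGTGTGA, which contains them, was in 0 of the 7 and in 3.31% of all. GC made up 58.0%, 73.6% and 73.2% of the 3 windows, against a median of 52.0% over all genes.

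By a rule of at least 1.5-fold, and among members with at least 100 UMIs over both libraries, the counts were as follows. In MLP-like cells 4 of 9 members were lower (Wnt5a, Vangl1, Vangl2 and Daam1), against 16.2% of the 9973 genes with as many UMIs, and 0 were higher, against 3.04%. BrM-like cells had 5 of 9 lower, Ror2 being added, against 14.9% of 9341 genes, and 0 higher, against 3.94%. In SoM/aSHF-like cells 6 of 9 were lower, Ror1 being added as well, against a background of 12.1%, and 0 higher, against 1.86%. In pSHF-like cells 5 of 9 were lower, against 11.3%, and 0 higher, against 2.14%. The share of members lower was thus larger than that of all genes in these 4 progenitor populations, and also in the other 3 given below. Wnt5a, Vangl1 and Vangl2 were among those lower in each of the 4. Under TMM scaling the count lower was 3 in pSHF-like cells, Vangl2 and Prickle1 being lost, 4 in SoM/aSHF-like cells, Ror1 and Daam1 being lost, and 1 in paraxial mesoderm-like cells, Vangl2 being lost, and 1 member, Ror1, was higher in MLP-like and in BrM-like cells. The others gave 2 of 9 in CM-like cells (Wnt5a and Ror2, background 9.86%), 2 of 6 in paraxial mesoderm-like cells (Ror2 and Vangl2, 12.0%) and 2 of 6 in endothelium-like cells (Vangl1 and Vangl2, 11.3%), with 0 higher in each, against 3.05%, 2.73% and 1.74% of all genes. In female cells alone these counts lower were 1, 4 and 1, from fewer cells under the same minimum of 100 UMIs. With a per-cell marker score 4 were lower in endothelium-like cells. The median log2 ratio over the members with enough UMIs was −0.47 in MLP-like, −0.91 in BrM-like, −0.64 in SoM/aSHF-like and −0.63 in pSHF-like cells, beside medians of −0.14, −0.12, −0.13 and −0.12 over all genes. In CM-like, paraxial mesoderm-like and endothelium-like cells it was −0.27, −0.32 and −0.39, beside −0.07, −0.10 and −0.10. The share of genes lower grew toward low levels: in MLP-like cells it was 18.4% of genes with a mean of 10 to 30 CPM, where Daam1 and Ror2 lay, and 3.82% of those with 100 to 300 CPM, where Fzd2 lay, and the part of level in the members' share was not tested.

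**Figure D5:**
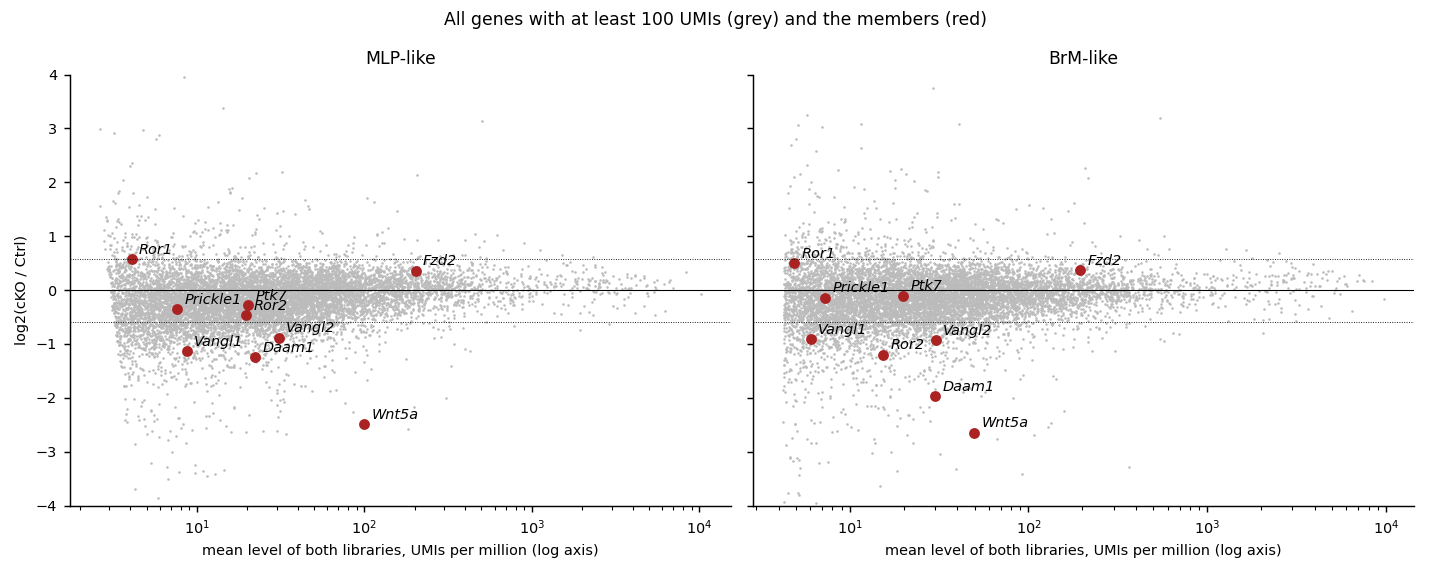
log2 ratio of cKO over Ctrl against the mean level of both libraries (CPM, log axis) for all genes with at least 100 UMIs (grey) and the members (red) in MLP-like and BrM-like cells, with dotted lines at 1.5-fold. Genes beyond 4 in either direction are not shown. Wnt5a lies below most genes of its level at −2.49 and −2.65, as does Daam1 in BrM-like cells at −1.97, while Ptk7 and Prickle1 lie within the grey cloud.

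The rest of the pathway was read from 45 further genes in 6 lists. In MLP-like cells 34 had at least 100 UMIs, of which 10 were lower and 2 higher by at least 1.5-fold, beside 16.2% and 3.04% of all genes. There 5 were lower under TMM scaling, and 6 with a per-cell marker score. In either sex alone 6 were lower, from fewer cells under the same minimum. In BrM-like cells 33 had as many, of which 8 were lower and 4 higher, beside 14.9% and 3.94%. At resolution 0.6 the count lower in BrM-like cells was 5. The receptors Fzd7 and Fzd4, unlike Fzd2, were lower in MLP-like cells, at 46.2 and 23.1 CPM and 35.8 and 15.9 CPM (−1.17, interval −1.38 to −0.96). Fzd7 reached 1.5-fold in 6 of the 7 populations, with 69.5 and 28.5 CPM in SoM/aSHF-like and 36.1 and 13.6 CPM in CM-like cells. Ankrd6 (diversin), a partner of Dishevelled, was at 20.3 and 6.42 CPM in MLP-like cells (−1.66, interval −1.97 to −1.35). Fat4, a giant protocadherin of the parallel Fat and Dachsous polarity system, was at 8.80 and 3.68 CPM there and at 9.85 and 3.43 CPM in BrM-like cells.

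Relatives of Daam1 and Prickle1 were lower in BrM-like cells. Daam2, the formin next of kin to Daam1, was at 17.7 and 5.45 CPM (−1.70, interval −2.13 to −1.28), and Prickle2, relative of Prickle1, at 8.42 and 1.49 CPM (−2.49, interval −3.33 to −1.74). Against the direction of Wnt5a, the related ligand Wnt5b, named after its values were seen, was higher there, at 7.83 and 14.3 CPM (0.87, interval 0.50 to 1.25), as was Sfrp2, a secreted Wnt modulator, at 20.2 and 38.5 CPM. In male cells alone 0 pathway genes were higher in BrM-like cells, and 2 at resolution 0.6. Both counts came from fewer cells under the same minimum of 100 UMIs, so they do not show whether the ratios changed. Gpc4, a glypican that binds Wnt proteins, was higher in MLP-like cells, at 1.51 and 5.24 CPM (1.79, interval 1.07 to 2.60). These levels came from only 18 and 111 UMIs. In MLP-like cells 0 pathway genes were higher without integration, at resolution 0.6, in the first clustering pass or with a per-cell marker score. The count was also 0 in either sex alone, but there the same minimum applied to fewer cells. The counts within the sexes thus do not show whether the Gpc4 ratio changed. In the other populations the counts lower and higher were 5 and 1 of 32 in SoM/aSHF-like (12.1% of all genes were lower), 11 and 0 of 36 in pSHF-like (11.3%), 6 and 0 of 20 in CM-like (9.86%), 4 and 0 of 24 in paraxial mesoderm-like (12.0%) and 8 and 0 of 20 in endothelium-like cells (11.3%). The SoM/aSHF-like count was 8 to 10 without integration, at resolution 0.6, in the first clustering pass and in female cells. The pSHF-like count lower was 7 under TMM scaling. The CM-like count lower was 3 with the stricter cell filter and 0 in male cells. The paraxial mesoderm-like count lower was 2 under TMM scaling and 9 in female cells. The endothelium-like count lower was 3 in female and 4 in male cells. Where a count fell in fewer cells, the minimum of 100 UMIs alone could lower it. Of the genes named by size there, Celsr2, Smurf2 and Fzd1 in pSHF-like cells had log2 ratios of −1.03, −0.90 and −0.77, Dchs1 in paraxial mesoderm-like cells −1.07, and Fzd10 and Mapk8 in endothelium-like cells −1.31 and −0.91.

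Markers of other cell types were also read, of which neural crest and epithelium lie outside the mesoderm. The 6 neural crest markers summed to 10.6 and 13.0 CPM in MLP-like cells and to 16.3 and 6.94 CPM in BrM-like cells, and over the 7 populations and both libraries to between 3.49 and 16.3 CPM. The 5 epithelial markers summed to 52.2 and 68.9 CPM in MLP-like and 15.7 and 32.3 CPM in BrM-like cells, with 3 of 5 higher in the library labelled cKO in each, and over the 7 populations to between 8.74 and 449.6 CPM. In SoM/aSHF-like, pSHF-like and CM-like cells they summed to 194 and 253, 102 and 162, and 275 and 449.6 CPM, with 2 of 5 higher in each. The 8 endothelial markers summed to 78.1 and 55.0 CPM in MLP-like and 70.7 and 54.1 CPM in BrM-like cells, although 5 of 8 and 6 of 8 single markers were higher in the library labelled cKO. The 10 CM markers summed to 148.2 and 159.1 CPM in MLP-like and 57.0 and 70.1 CPM in BrM-like cells. The part of these cells in the values of the members was not tested.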

How the data were processed

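Cells were sorted from 2 pools of E9.5 mouse embryos, labelled Ctrl and cKO, and captured with the 10x 3′ kit (v2). The authors made UMI counts per gene and cell with Cell Ranger 3.1.0 (mm10), per the labels and their methods, and deposited filtered, unnormalized matrices of 7418 and 10281 cells with 132017331 and 162874391 UMIs. Cells with at least 1000 genes and at most 10.0% mitochondrial UMIs were kept, excluding 411 and 508. The doublet caller (scanpy 1.11.5) marked 0 and 843 cells by its own cut-off, so it was not used that way. Instead the highest-scoring cells, at 0.8% per 1000 cells, were removed (416 and 804). The libraries shared 15 barcodes.

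Cells were clustered in Seurat 5.3.0 (R 4.3.3) after integration, with 2000 variable genes, 30 dimensions and resolution 1. Members, pathway lists, sex-linked genes and genes differing at least 2-fold between the libraries were left out. Of 27 clusters, 18 were named from the marker lists, by thresholds set after the clusters were seen (at least 3 markers), and names may differ from the study's. UMIs were summed per library and population and scaled to CPM. Ratios carry exact conditional 95% intervals, levels exact Poisson, shares Clopper-Pearson and differences between populations approximate normal ones. These cover counting error only. A fold of 1.5 and at least 100 UMIs over both libraries defined lower and higher. For shares, each cell was thinned to 5000 UMIs. The floor was 3 counts. The study's negative binomial model over single cells was not run, since cells are not replicates. Interval code was tested on simulated data. Other tools were Python 3.11.15, scipy 1.17.1, edgeR 4.0.16 (TMM factors only) and matplotlib 3.10.9.

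All 10 members were named, with up to 6 other pathway genes per population with the largest ratios and, for both ligands, the 5 genes with the most similar pattern over clusters. Members and lists were chosen with earlier results of these data known. The alternatives were TMM scaling, other doublet, integration, resolution, clustering-pass, cell-filter and naming choices, each sex alone, no count minimum, a fold of 2 and other thinning.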

Additional observations from a re-analysis of the deposited data

Results flagged for a closer look

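Ror1 was higher in MLP-like cells of the library labelled cKO, with a log2 ratio of 0.57 (3.27 and 4.86 CPM, from 39 and 103 UMIs), and lower in SoM/aSHF-like cells, with a log2 ratio of −0.64 (17.4 and 11.1 CPM). The populations thus moved in opposite directions, each with 1 library per genotype, and the difference was not tested. Without integration, at resolution 0.6 and in male cells the MLP-like ratio turned negative.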

How the results depend on the processing

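Of 70 log2 ratios of members, 65 moved by less than their counting interval under TMM scaling, 65 without integration, 62 at resolution 0.6, 63 with a per-cell marker score, 52 of the 67 that could be computed in female and 49 of 69 in male cells, with 67 to 70 under the other alternatives. Wnt5a ranged from −2.66 to −2.26 in MLP-like and −2.92 to −2.24 in BrM-like cells, and more widely from −1.78 to −0.84 in SoM/aSHF-like (lowest with a per-cell marker score), −1.62 to −0.22 in CM-like (male and female cells) and −0.99 to −0.09 in paraxial mesoderm-like cells (resolution 0.6 and the first clustering pass), Daam1 in BrM-like cells from −2.07 to −1.51 and Fzd2 in MLP-like cells from 0.24 to 0.54. The ratio of Ror1 in MLP-like cells turned to −0.58 without integration, −0.74 at resolution 0.6 and −0.17 in male cells, and that of Ptk7 there to 0.0647 in male cells. The intervals of both ratios in male cells included 0. Counts past the fold that moved by over 1.5 times were these, and the cause was not tested. By the rule itself a higher fold cannot raise a count and dropping the count minimum cannot lower it. Fewer cells went with counts that moved in both directions. Under the minimum of 100 UMIs, fewer cells can lower a count without a change in any ratio. Under TMM scaling, members lower were 3 in pSHF and 1 in paraxial, members higher were 1 in MLP and 1 in BrM, pathway genes lower were 5 in MLP, 7 in pSHF and 2 in paraxial and pathway genes higher were 1 in pSHF cells. With presumed doublets kept, pathway genes higher were 1 in MLP and 1 in CM cells. Without integration, pathway genes lower were 9 in SoM/aSHF and pathway genes higher were 0 in MLP and 0 in SoM/aSHF cells. At resolution 0.6, members higher were 1 in paraxial, pathway genes lower were 5 in BrM and 9 in SoM/aSHF and pathway genes higher were 0 in MLP, 2 in BrM, 0 in SoM/aSHF and 1 in paraxial cells. In the first clustering pass, members lower were 1 in paraxial, pathway genes lower were 8 in SoM/aSHF and 2 in paraxial and pathway genes higher were 0 in MLP cells. In female cells alone, members lower were 1 in CM, 4 in paraxial and 1 in endothelium, pathway genes lower were 6 in MLP, 10 in SoM/aSHF, 9 in paraxial and 3 in endothelium and pathway genes higher were 0 in MLP, 0 in SoM/aSHF, 2 in pSHF, 2 in paraxial and 1 in endothelium cells. In male cells alone, members lower were 1 in endothelium, pathway genes lower were 6 in MLP, 0 in CM and 4 in endothelium and pathway genes higher were 0 in MLP, 0 in BrM and 0 in SoM/aSHF cells. With the stricter cell filter, members higher were 1 in MLP and pathway genes lower were 3 in CM cells. With a per-cell marker score, members lower were 4 in endothelium, members higher were 1 in endothelium, pathway genes lower were 6 in MLP and pathway genes higher were 0 in MLP, 0 in SoM/aSHF and 2 in paraxial cells. Without a count minimum, members lower were 4 in endothelium, members higher were 1 in paraxial, pathway genes lower were 18 in MLP, 15 in BrM, 12 in SoM/aSHF, 13 in CM, 10 in paraxial and 18 in endothelium and pathway genes higher were 7 in BrM, 1 in pSHF, 3 in CM, 2 in paraxial and 5 in endothelium cells. At a fold of 2, members lower were 3 in BrM, 1 in SoM/aSHF, 1 in pSHF, 0 in CM, 0 in paraxial and 0 in endothelium, pathway genes lower were 5 in MLP, 4 in BrM, 2 in SoM/aSHF, 1 in pSHF, 2 in CM, 2 in paraxial and 1 in endothelium and pathway genes higher were 1 in MLP, 0 in BrM and 0 in SoM/aSHF cells. Each genotype is 1 library, so leaving out a library leaves no comparison. No paired analysis was possible because each genotype has 1 library and no result comes from a test. Depth limits Wnt11 in MLP-like, BrM-like, SoM/aSHF-like and paraxial mesoderm-like cells and Ror1 in 4 of the 7 populations, where UMIs stayed under 100. The same holds for Vangl1 and Prickle1 in paraxial mesoderm-like cells and for Wnt5a, Ror2 and Prickle1 in endothelium-like cells.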
